A study of Mus musculus with 8 samples.

Results

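Messenger RNA of A3-1 cells, a mouse embryonic stem cell line, was compared between cells transfected with a siRNA against luciferase (siLuc) and untreated cells. Luciferase is a reporter enzyme with no mouse gene, so siLuc serves as a control for the act of silencing, and no target transcript exists by which its effect could be checked. Each condition had 1 poly(A)-selected library: siLuc cells collected 48 h after siRNA, siLin28a cells given a siRNA against Lin28a for the same time, and untreated cells with no siRNA. All 3 came from A3-1 cells grown in medium with 20% serum, non-essential amino acids and LIF. The labels describe no library given transfection reagent alone, so the reagent, the siRNA and differences in culture cannot be told apart. The compared set was every RefSeq transcript with at least 200 counts summed over the siLuc and untreated libraries, which held 8743 of 16456 rows (53.1%), of which 8680 were coding and 63 non-coding. The last transcripts inside the minimum were Tubd1 and Fcgrt with 200 summed counts, and the first outside were AU015836 and H2afy2 with 199.

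Synthetic siRNAs are short duplexes, 1 strand of which is loaded into an Argonaute protein and guides cleavage of a matching RNA. A loaded strand can also lower other mRNAs through its seed, as a microRNA does, and a duplex or its carrier can engage sensors of foreign RNA. Stressed cells commonly use the integrated stress response, in which kinases phosphorylate the translation factor eIF2, translation of the transcription factor ATF4 goes up, and ATF4 with its partner CHOP (Ddit3) switches on genes for amino acid supply and feedback. The siLuc duplex is shown because its seeds are what any microRNA-like action would use. Each strand is given 5′ to 3′ without its dTdT overhang, with bases 2 to 8, the seed, in capitals. Which strand acts as the guide is not stated in the labels. None of 1679 mature mouse microRNAs in RefSeq's table (GRCm38.p6) had either seed, that is 0 for both strands.
siLuc strand 1: uCGAAGUAcucagcguaag
siLuc strand 2: cUUACGCUgaguacuucga

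The libraries held 7475174 counts in siLuc, 9605641 in siLin28a and 9264777 in untreated cells. Levels are given as CPM, the count scaled to the library total, and ratios as log2 of siLuc over untreated CPM after adding 0.5 counts. With 1 library per condition there was no test. Lin28a, the target of the other siRNA, had 354 CPM in siLuc, 118 CPM in siLin28a and 465 CPM in untreated cells, so the labelled knockdown had the lowest level. Its row is counted lower elsewhere in the series. The ribosome-footprint table gives it 398 siLuc mRNA counts, against 2646 here. The CLIP table gives 3974 mRNA counts, against 4304 in untreated cells here. The brackets hold 95% intervals that cover counting error only and no difference between cultures. The median half-width of such an interval was 0.19 on the log2 scale, from 0.35 in the quintile of transcripts with the fewest counts to 0.09 in the quintile with the most. In bulk RNA, fewer cells of a type and less RNA per cell cannot be told apart. All 9 listed markers of embryonic stem cells were in the compared set and summed to 5286 CPM in siLuc, 6330 CPM in siLin28a and 5146 CPM in untreated cells. Of 10 fibroblast or feeder markers 5 had a row, summing to 287, 303 and 180 CPM in the same order, and 2 of these had enough counts. Most of that sum was Vim, an intermediate filament gene also expressed by stem cells, with 262 CPM in siLuc, 289 CPM in siLin28a and 153 CPM in untreated cells. Thy1, the other with enough counts, had 23.3 CPM in siLuc, 10.6 CPM in siLin28a and 24.1 CPM in untreated cells. The collagen gene Col1a1, below the minimum, had 1.34, 1.25 and 1.73 CPM in the same order. Primitive endoderm markers summed to 3.08, 5.21 and 3.67 CPM, and trophoblast markers, of which 1 was at 0 in both compared libraries, to 1.74, 2.81 and 1.51 CPM. Markers of primed epiblast and mesendoderm summed to 63.5, 110 and 66.9 CPM, most of it Otx2. Neural markers summed to 58.1, 76.9 and 52.3 CPM, most of it Tubb3. The part of the higher Vim level in the results that follow was not tested.

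Messenger RNA of siLuc cells was close to that of untreated cells for most transcripts. Of the 8743 transcripts, 8064 (92.2%) lay within 1.5-fold of the untreated level, the median log2 ratio was -0.01 and the quartiles were -0.22 and 0.20. At least 2-fold higher levels with siLuc were found for 22 transcripts (0.252%) and at least 2-fold lower levels for 32 (0.366%). At 1.5-fold there were 289 higher (3.31%) and 390 lower (4.46%), and 49.1% of all transcripts had a log2 ratio above 0. These shares are the background for every gene group below. The whole counting interval lay beyond 2-fold for 5 higher transcripts (Mir715, Chac1, Ddit3, Anxa2 and Ndc80) and for 6 lower ones (Egr1, Slc19a1, Cldn6, Alg3, Ifitm1 and Rplp0). Of the 5 transcripts with the most summed counts, 3 lay within 0.15 of 0 on the log2 scale and 2 lay farther off. Hsp90ab1, a cytosolic chaperone, had 6124 CPM in siLuc and 6144 CPM in untreated cells, Gnb2l1, a ribosome-bound scaffold, had 4961 CPM in siLuc and 4886 CPM in untreated cells, and Eef2, a translation elongation factor, had 3849 CPM in siLuc and 3473 CPM in untreated cells (0.15). Ncl, nucleolin, had 4639 CPM in siLuc, 2971 CPM in siLin28a and 3392 CPM in untreated cells (0.45 [0.43, 0.47]). Trim28, a corepressor bound by zinc finger proteins, had 2736 CPM in siLuc, 3111 CPM in siLin28a and 4007 CPM in untreated cells (-0.55 [-0.57, -0.53]).

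**Figure D1:**
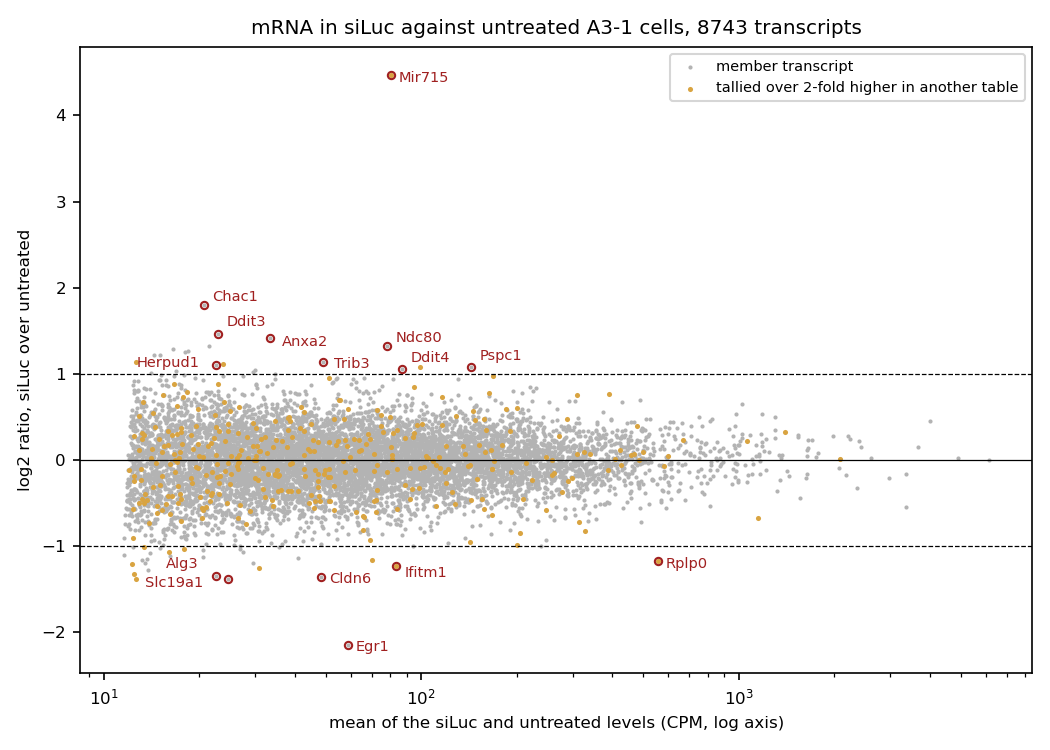
Log2 ratio of siLuc over untreated for each of the 8743 transcripts (y axis) against the mean of the 2 levels in CPM (x axis, log scale); dashed lines mark 2-fold and ochre points are transcripts that another table of the series counts over 2-fold higher. Chac1, Ddit3, Anxa2 and Ndc80 lie above the cloud and Egr1 lies farthest below it, at -2.15.

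Some rows were counted differently in other tables of the series, and how reads shared between gene copies entered them is not given. The ribosome-footprint table of the series holds its own siLuc mRNA counts for 7718 of the transcripts, and the CLIP table holds mRNA counts, of a condition that its column name does not give, for 7613. The ratio of each such count to the one used here was set against its median over the compared transcripts. For 7395 transcripts it lay within 2-fold of that median, for 354 it was higher, for 431 lower, and 563 had no other count. Of the 22 transcripts at least 2-fold higher 4 were counted higher elsewhere, as were 10 of the 32 lower ones. Mir715, a row of 110 bases at chr17:39981081-39981190 (mm9) annotated as a microRNA precursor, was the extreme case. It had 154 CPM in siLuc, 183 CPM in siLin28a and 6.91 CPM in untreated cells, where it rested on 64 counts, against 376 counts in the CLIP table. Rplp0, the stalk protein P0 of the large ribosomal subunit, had 340 CPM in siLuc, 356 CPM in siLin28a and 771 CPM in untreated cells (log2 ratio -1.18 [-1.25, -1.11]), and 46 of 55 cytosolic ribosomal protein transcripts were counted higher elsewhere. The ratios of these rows are uncertain. The genes named below are other transcripts unless said, but the counts and medians of the gene lists include such rows.

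Leaving Mir715 aside, the transcripts farthest above the untreated level were led by genes of the integrated stress response. Chac1, an enzyme that breaks down glutathione and a known ATF4 target, lies at chr2:119176978-119180062 (mm9, transcript NM_026929). It had 240 counts (32.1 CPM) in siLuc, 57 counts (5.93 CPM) in siLin28a and 85 counts (9.17 CPM) in untreated cells, a log2 ratio of 1.80 [1.44, 2.18]. The siLuc library was thus the high library of the 3, and siLin28a was the lowest. Ddit3, the transcription factor CHOP, had 33.6 CPM in siLuc, 21.7 CPM in siLin28a and 12.2 CPM in untreated cells (1.46 [1.14, 1.79]). Trib3, a pseudokinase that feeds back on ATF4 and CHOP, had 67.6 CPM in siLuc, 21.2 CPM in siLin28a and 30.8 CPM in untreated cells (1.13 [0.92, 1.35]). Atf4 itself had 285 CPM in siLuc, 188 CPM in siLin28a and 164 CPM in untreated cells (0.80 [0.71, 0.90]). For all 4 genes siLuc was the highest library.

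Of 16 listed sensors, factors and feedback genes of this response, 11 had enough counts, 10 of them had a ratio above 0 and 3 were at least 1.5-fold higher with siLuc. Their median log2 ratio was 0.32 with siLuc and -0.05 with siLin28a, both against the same untreated library. Of the 4 eIF2 kinases 3 had a ratio above 0. Eif2ak2 (PKR, activated by dsRNA) had 47.9 CPM in siLuc, 32.2 CPM in siLin28a and 36.5 CPM in untreated cells (0.39 [0.17, 0.61]). Eif2ak1 (HRI, activated by lack of heme) had 78.5 CPM in siLuc, 77.1 CPM in siLin28a and 95.1 CPM in untreated cells (-0.28 [-0.43, -0.12]). Eif2ak4 (GCN2, activated by lack of amino acids) had a log2 ratio of 0.25 [0.07, 0.44] and Eif2ak3 (PERK, of the ER) one of 0.15 [-0.13, 0.43]. Ppp1r15a (GADD34), which directs dephosphorylation of eIF2, had 26.9, 26.1 and 21.5 CPM in the same order. Below the minimum, Atf3, another stress-induced factor, had 37 counts in siLuc, 26 in siLin28a and 8 in untreated cells. The other listed genes below it went both ways. Jdp2 had 16.9 CPM in siLuc and 7.77 CPM in untreated cells, and Nupr1 had 6.29 and 3.56 CPM. Cebpb had 6.56 CPM in siLuc and 7.12 CPM in untreated cells, and Nfil3 had 5.75 and 6.15 CPM.

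Among 18 measured ATF4 target enzymes and related genes, 15 had a ratio above 0 and 3 were at least 1.5-fold higher, with a median of 0.12. The third beside Chac1 and Ddit4 was Pck2, the mitochondrial enzyme that makes phosphoenolpyruvate, with 48.8 CPM in siLuc, 38.8 CPM in siLin28a and 28.3 CPM in untreated cells (0.79 [0.56, 1.02]). Ddit4 (REDD1), an inhibitor of the growth kinase mTORC1 that is also a hypoxia gene, had 118 CPM in siLuc, 111 CPM in siLin28a and 56.5 CPM in untreated cells (1.06 [0.90, 1.22]). Cth, which makes cysteine, had 116 CPM in siLuc, 108 CPM in siLin28a and 81.2 CPM in untreated cells (0.51 [0.37, 0.65]), and Gpt2, an alanine aminotransferase, had 117, 48.3 and 84.3 CPM in the same order (0.47 [0.33, 0.61]). Asns, asparagine synthetase, had 483 CPM in siLuc, 447 CPM in siLin28a and 395 CPM in untreated cells (0.29 [0.22, 0.36]). Psat1, of serine synthesis, had 426, 216 and 426 CPM in the same order (0.00 [-0.07, 0.07]). Per length, Asns stood at 251 RPKM in siLuc and 205 RPKM in untreated cells, above Chac1 at 20.5 RPKM in siLuc and 5.85 RPKM in untreated cells.

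The amino acid transporters and the synthetases of the response had lower medians than its factors. Of 8 measured amino acid transporters of this response 2 had a ratio above 0, none passed 1.5-fold upward and 1 did so downward, with a median of -0.06. Of 20 cytosolic aminoacyl-tRNA synthetases 13 had a ratio above 0, 0 passed 1.5-fold in either direction and the median was 0.06. The same lists had medians of -0.51 and -0.35 with siLin28a against the same untreated library.

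**Figure D2:**
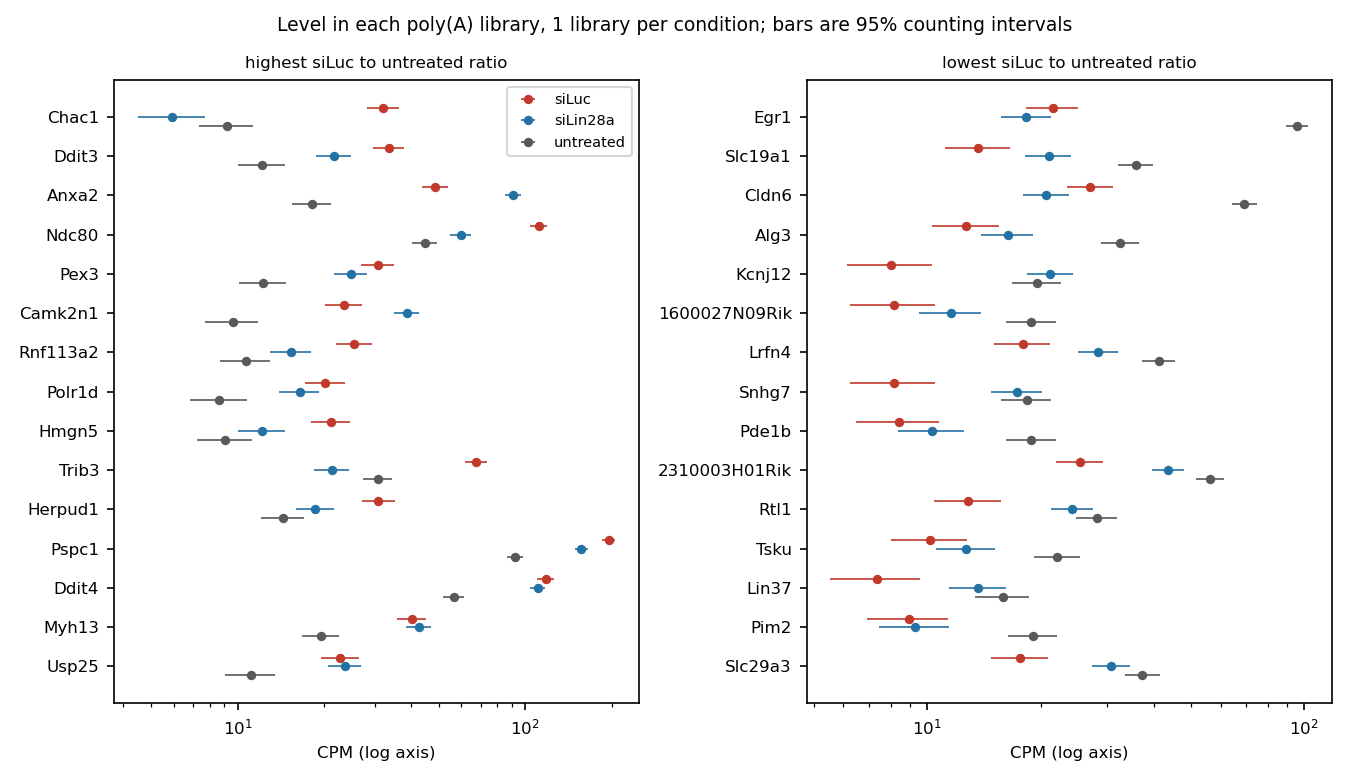
CPM (x axis, log scale) of the 15 reported transcripts with the highest (left) and lowest (right) ratio of siLuc over untreated among those not counted higher elsewhere, in siLuc (red), siLin28a (blue) and untreated (grey) cells, 1 library each; bars are 95% counting intervals. For Chac1 and Trib3 the siLin28a point lies below the untreated point, for Ddit4 and Myh13 it lies beside the siLuc point, and for Egr1 and Cldn6 both siRNA libraries lie far below untreated cells.

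Genes of protein folding in the endoplasmic reticulum (ER) held members on both sides. The unfolded protein response raises ER chaperones and degradation factors when unfolded proteins gather in the ER. Of 28 measured genes 17 had a ratio above 0, 4 passed 1.5-fold upward and 1 downward, and the median was 0.11. Over the members with at least 1000 summed counts the median was 0.35. Herpud1, a membrane protein of ER-associated degradation, had 30.9 CPM in siLuc, 18.6 CPM in siLin28a and 14.4 CPM in untreated cells (1.10 [0.79, 1.42]). Hsp90b1 (GRP94), the HSP90 of the ER, had 9383 counts (1255 CPM) in siLuc, 9719 counts (1012 CPM) in siLin28a and 7417 counts (801 CPM) in untreated cells (0.65 [0.60, 0.69]). Both were highest with siLuc. Dnajb11, a co-chaperone of BiP, had 114, 85.5 and 67.6 CPM in siLuc, siLin28a and untreated cells, and Ero1l, the oxidase that drives disulphide formation, had 114, 116 and 67.4 CPM. BiP itself, Hspa5, had 673 CPM in siLuc, 845 CPM in siLin28a and 610.5 CPM in untreated cells (0.14 [0.09, 0.20]). Ern1, the sensor IRE1, was the low member, with 16.3 CPM in siLuc, 21.8 CPM in siLin28a and 25.5 CPM in untreated cells (-0.64 [-0.97, -0.32]).

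Promoters of these genes were searched for the elements through which the responses are known to act, on both strands, in 300 bases from 250 before to 50 after the RefSeq start (GRCm38.p6). A promoter was found for 7035 of the compared transcripts. A gene counted if any of its promoters held the letters. Shares of the 7035 are thus by gene, and shares of all 32851 promoters are by promoter. The C/EBP-ATF response element (CARE), bound by ATF4 with its partners, was searched as TGATGNAAN. The ER stress response element (ERSE), bound by NF-Y with ATF6, was searched as CCAAT and CCACG with 9 bases of any kind between them. CARE letters were in 3.95% of all 32851 promoters and in 170 (2.42%) of the 7035. Among these were 4 of 15 enzymes of the stress response (Asns, Chac1, Got1 and Pck2) and 5 of 13 synthetases. They also held 1 of 10 sensors, factors and feedback genes (Trib3) and 1 of 4 amino acid transporters (Slc1a4). ERSE letters were in 0.119% of all promoters and in 14 (0.199%) of the 7035, of which 8 were on the list of 23 ER genes with a promoter. No promoter of the 7035 held both (0). The promoters of Chac1 and Herpud1 are shown for CARE, and those of Hsp90b1 and Creld2, a secreted ER stress gene, for ERSE. Each stretch is the 250 bases before the start on the gene's strand, with the element in capitals.
Chac1 promoter: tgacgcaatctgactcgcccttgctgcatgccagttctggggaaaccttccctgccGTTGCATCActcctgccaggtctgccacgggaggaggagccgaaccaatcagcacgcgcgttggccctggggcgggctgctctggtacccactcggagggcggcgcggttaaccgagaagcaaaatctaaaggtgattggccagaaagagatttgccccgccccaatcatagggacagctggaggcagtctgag
Herpud1 promoter: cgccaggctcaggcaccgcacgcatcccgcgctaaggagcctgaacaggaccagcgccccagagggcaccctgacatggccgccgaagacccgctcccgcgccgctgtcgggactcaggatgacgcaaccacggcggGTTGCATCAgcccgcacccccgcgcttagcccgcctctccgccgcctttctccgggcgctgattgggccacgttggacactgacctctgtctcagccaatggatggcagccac
Hsp90b1 promoter: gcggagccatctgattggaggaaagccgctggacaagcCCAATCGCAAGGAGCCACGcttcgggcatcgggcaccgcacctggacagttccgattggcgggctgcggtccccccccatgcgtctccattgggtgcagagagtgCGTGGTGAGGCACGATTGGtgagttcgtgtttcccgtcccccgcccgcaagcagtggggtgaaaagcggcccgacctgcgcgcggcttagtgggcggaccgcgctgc
Creld2 promoter: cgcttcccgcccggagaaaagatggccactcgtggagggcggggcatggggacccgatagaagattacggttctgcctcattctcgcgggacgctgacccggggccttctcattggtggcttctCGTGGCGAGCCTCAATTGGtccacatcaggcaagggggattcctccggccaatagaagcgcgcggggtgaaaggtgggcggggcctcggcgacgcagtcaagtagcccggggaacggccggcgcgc

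These stretches are chr2:119350992-119351241 (plus strand) for Chac1, chr8:94386179-94386428 (plus) for Herpud1, chr10:86705445-86705694 (minus) for Hsp90b1 and chr15:88819396-88819645 (plus) for Creld2, all in GRCm38.p6. The CARE letters are on the opposite strand in both promoters, at -194 to -186 in Chac1 and at -113 to -105 in Herpud1. Hsp90b1 holds ERSE letters at -212 to -194 and, on the opposite strand, at -107 to -89, and Creld2 holds them on the opposite strand at -126 to -108. Ddit3, Ddit4 and Atf4 had no CARE letters in this window, and Trib3 had them after its start.

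Ratios were then set beside these letters for all transcripts with a promoter. The 170 transcripts with CARE letters had a median log2 ratio of 0.05, with 94 above 0, 14 past 1.5-fold upward and 8 downward. The 6865 without had a median of -0.01, with 3365 above 0, 213 higher and 302 lower. Of the stress response factors only Trib3 had CARE letters (1.13), and the 9 without had a median of 0.32. The 4 enzymes with them had a median of 0.54 and the 11 without 0.06. For synthetases the medians were 0.11 over 5 with and -0.04 over 8 without. Slc1a4 had -0.02, and the 3 transporters without had a median of -0.05. The 14 with ERSE letters had a median of 0.13, with 10 above 0 and 1 at least 1.5-fold higher. On the ER list, the 8 genes with ERSE letters had a median of 0.32 and ranged from -0.30 for Syvn1 to 0.65 for Hsp90b1, and the 15 without had a median of 0.05. In these 8 the siLin28a median against the same untreated library was 0.38. Creld2 had 119 CPM in siLuc, 123 CPM in siLin28a and 80.1 CPM in untreated cells, and Pdia6, a disulphide isomerase, had 613, 581 and 439 CPM. The sets are small, and their medians were not tested.

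The hypoxia response, which the factor HIF1 runs when oxygen is short, had the highest median of the lists with at least 5 measured members at the minimum of 200 summed counts. Of 16 genes 15 had a ratio above 0 and 7 were at least 1.5-fold higher, with a median log2 ratio of 0.47 with siLuc and 0.88 with siLin28a against the same untreated library. Bhlhe40, a transcriptional repressor, had 79.9 CPM in siLuc, 132 CPM in siLin28a and 41.8 CPM in untreated cells (0.93 [0.75, 1.12]). P4ha1, a collagen prolyl hydroxylase, had 85.5, 105 and 50.1 CPM in the same order (0.77 [0.60, 0.95]). Vegfa, the growth factor for blood vessels, had 57.1, 66.3 and 35.0 CPM (0.71 [0.50, 0.92]). In each of these 3 genes siLin28a was the highest library and untreated the lowest. Hif1a, the oxygen-sensitive subunit of HIF1 that is mainly controlled as a protein, had 224, 201 and 196 CPM (0.19 [0.09, 0.29]). Ddit4 is on this list as well as on the ATF4 list. Over members with at least 1000 summed counts the siLuc median was 0.20, below that of the ER list. With a minimum of 50 summed counts it was 0.34. Below the minimum of 200, Ankrd37 had 4.55 CPM in siLuc and 7.34 CPM in untreated cells, and Bnip3 had 9.77 and 7.88 CPM. Adm had 21 counts in siLuc and 10 in untreated cells, and Car9 had 14 and 9. Higd1a, a mitochondrial protein, was counted higher elsewhere, and without it the siLuc median was 0.36 over 15 genes.

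Of 17 measured genes of glycolysis and glucose uptake 14 had a ratio above 0, 0 passed 1.5-fold in either direction and the median was 0.16. Counted higher elsewhere were 5 of the 17, among them Gapdh, the highest member at 0.51. Eno1, an enolase, lay farthest from 0, with 60.7 CPM in siLuc, 84.2 CPM in siLin28a and 90.6 CPM in untreated cells (-0.58 [-0.74, -0.41]). Below the minimum, the glycolysis gene Pgk1 had 21 counts in siLuc, 78 in siLin28a and 127 in untreated cells (2.81, 8.12 and 13.7 CPM). Also below it, Eno2 had 8.03 CPM in siLuc and 8.42 CPM in untreated cells, and Pgam1 had 6.15 and 5.18 CPM. Slc2a1, the glucose transporter GLUT1, had 561 CPM in siLuc, 867 CPM in siLin28a and 434 CPM in untreated cells (0.37 [0.31, 0.43]). Pfkp, a phosphofructokinase, had 529, 598 and 390 CPM in the same order. Txnip, an arrestin-domain protein that limits glucose uptake, had 284 CPM in siLuc, 98.7 CPM in siLin28a and 158 CPM in untreated cells, so the siRNA libraries lay on opposite sides of the untreated one.

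**Figure D3:**
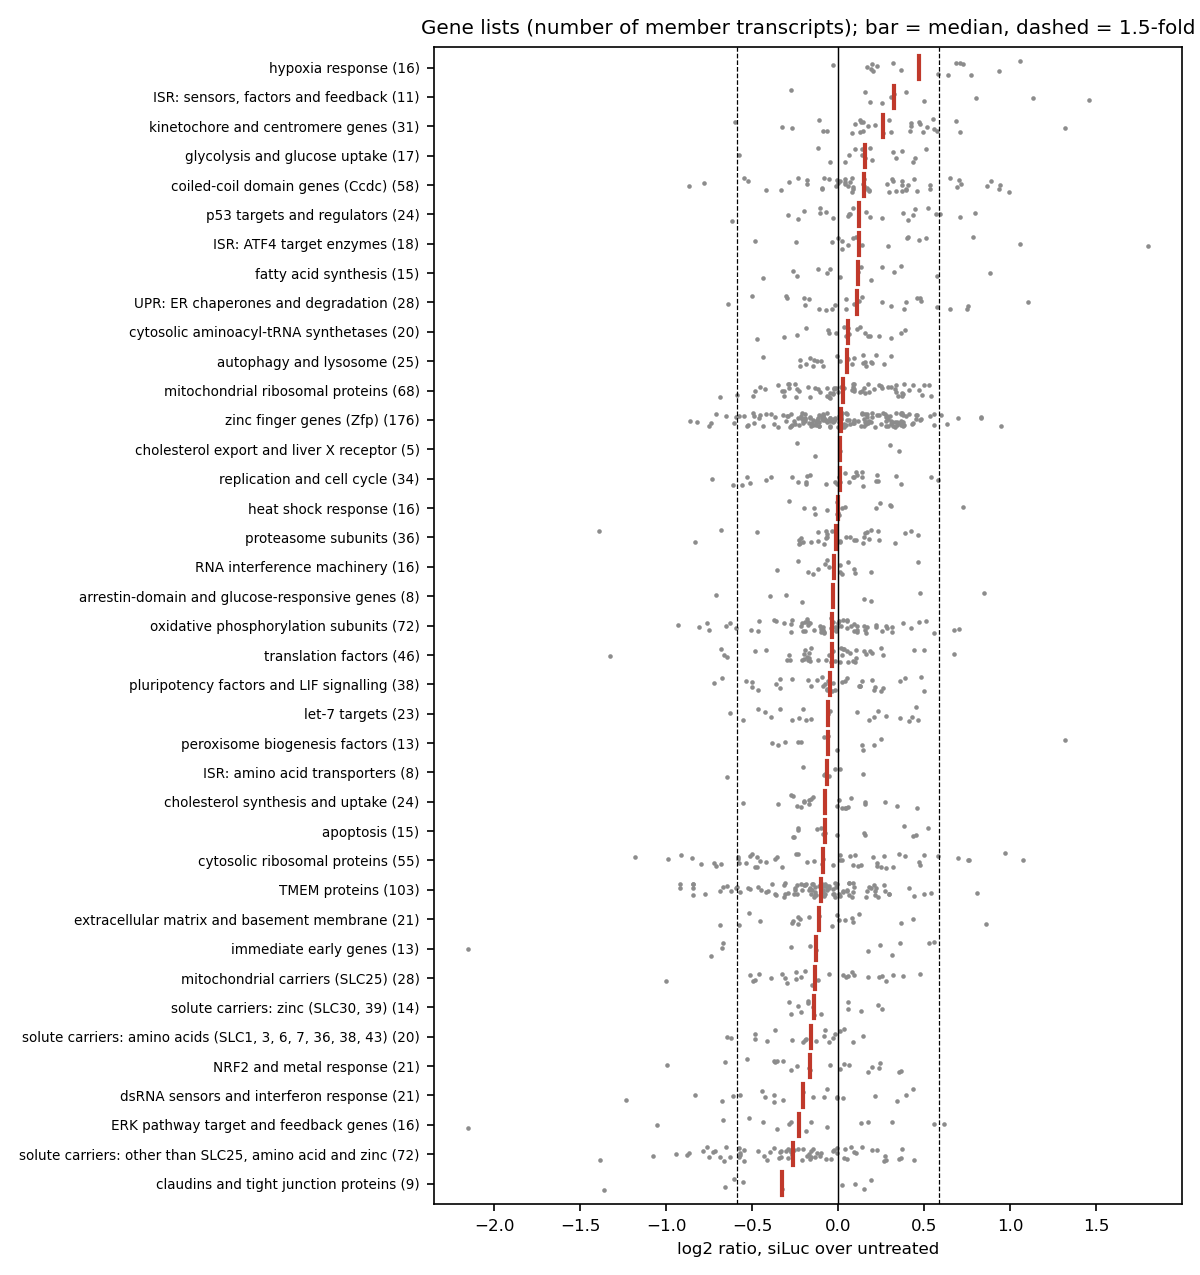
Log2 ratio of siLuc over untreated (x axis) for each measured transcript (points) of the gene lists with at least 5 such transcripts, ordered by their median (red bar); dashed lines mark 1.5-fold. At the minimum of 200 summed counts the hypoxia list lies highest, with a median of 0.47, and the ATF4-related factors follow at 0.32.

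Egr1 had the lowest ratio of the 8743 compared transcripts. It is an immediate early gene, a transcription factor that growth factor signalling through ERK switches on within minutes. It had 161 counts (21.5 CPM) in siLuc, 176 counts (18.3 CPM) in siLin28a and 888 counts (95.8 CPM) in untreated cells, a log2 ratio of -2.15 [-2.41, -1.91], or 22.5% of the untreated level. Both siRNA libraries were low and the untreated one was high. Other immediate early genes did not share its size: of 13 measured, 6 had a ratio above 0, 0 passed 1.5-fold upward and 4 downward, with a median of -0.13. The other 3 low ones were Srf, the serum response factor, with 42.5 CPM in siLuc, 55.0 CPM in siLin28a and 67.7 CPM in untreated cells, Nr4a1, a nuclear receptor, with 31.7, 63.5 and 50.7 CPM, and Zfp36, an RNA-decay factor, with 10.8, 10.2 and 18.1 CPM. Ier2, another immediate early gene, had 188, 164 and 167 CPM. Fos had 30 counts in siLuc, 58 in siLin28a and 43 in untreated cells, below the minimum.

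Targets and feedback genes of ERK signalling were listed after Egr1 had been seen to lead. Of 16 measured, 5 had a ratio above 0, 1 passed 1.5-fold upward and 3 downward, with a median of -0.23. The 3 include Egr1 and Srf, given above. Nab2, the third, a corepressor that binds EGR1, had 13.4 CPM in siLuc, 28.2 CPM in siLin28a and 27.8 CPM in untreated cells (-1.05 [-1.41, -0.72]), low only in the siLuc library of the 3. Etv4, an ETS factor, had 94, 64.3 and 127 CPM in siLuc, siLin28a and untreated cells. Spred1, an inhibitor of the pathway, was the higher member, with 108 CPM in siLuc, 69.3 CPM in siLin28a and 70.8 CPM in untreated cells (0.62 [0.47, 0.77]). Dusp6, the ERK phosphatase, had 84.3, 86.4 and 67.8 CPM (0.31).

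Genes of the response to foreign RNA were not higher as a group. Cells that sense long or modified dsRNA make interferon and then interferon-induced genes. Of 46 such genes listed in the files, 21 had enough counts, 5 of them had a ratio above 0, 0 passed 1.5-fold upward and 4 downward, with a median of -0.21. The siLin28a median against the same untreated library was -0.18. Without the rows counted higher elsewhere the siLuc median was -0.15 over 19 genes. Typical interferon-induced genes were near 0 in every library: Isg15 had 0 counts in siLuc, 1 in siLin28a and 1 in untreated cells, Usp18 had 0, 1 and 0, and Rsad2 had 6, 1 and 4. Ifit2 had 28, 14 and 14 counts and Cxcl10 had 1, 0 and 7. Ddx58 (RIG-I), a sensor, had a log2 ratio of -0.01. Psmb10, an immunoproteasome subunit, had 23.0 CPM in siLuc, 32.3 CPM in siLin28a and 41.0 CPM in untreated cells (-0.83 [-1.10, -0.57]). Ifitm3, a membrane protein that hinders virus entry and is also made by stem cells, had 13.6, 9.37 and 21.8 CPM (-0.67 [-1.03, -0.33]). Ifitm1 was lower too, at 49.6, 80.9 and 117 CPM, but its row is among those counted higher elsewhere.

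The RNA interference machinery, which handles the duplex itself, lay near the untreated level. Of 16 measured genes 8 had a ratio above 0, 0 passed 1.5-fold in either direction and the median was -0.02. Eif2c2 (Argonaute 2), the slicing Argonaute, had 204 CPM in siLuc, 200 CPM in siLin28a and 226 CPM in untreated cells (-0.15 [-0.24, -0.05]). Dicer1 had 346, 308 and 365 CPM in the same order. Eif2c1 (Argonaute 1) was the lowest member, with 121, 198 and 155 CPM (-0.35). Prkra, a dsRNA-binding partner of Dicer and PKR, was the highest, with 15.7, 15.3 and 11.3 CPM (0.47).

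**Figure D4:**
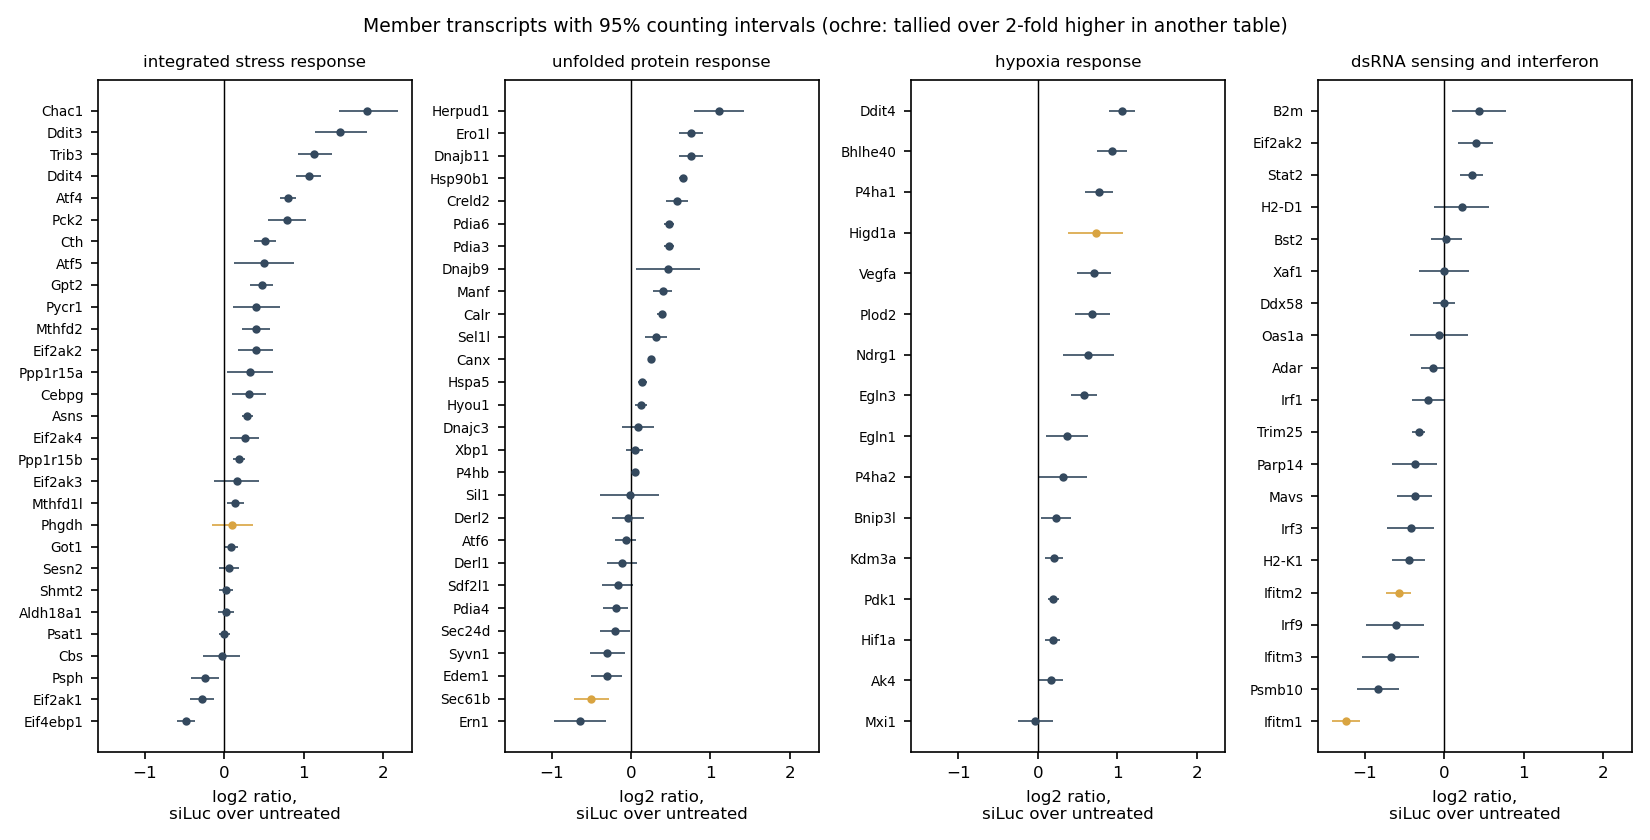
Log2 ratio of siLuc over untreated (x axis) with 95% counting intervals for the reported genes of 4 responses, 1 row per gene; ochre marks genes counted higher in another table. Chac1, Ddit3, Trib3, Ddit4 and Herpud1 lie above 1, most hypoxia genes lie right of 0, and most genes of dsRNA sensing and interferon lie left of it.

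p53 targets were spread. Of 24 measured genes 16 had a ratio above 0, 3 passed 1.5-fold upward and 1 downward, with a median of 0.12. Ccng1, cyclin G1, had 248 CPM in siLuc, 236 CPM in siLin28a and 143 CPM in untreated cells (0.80 [0.69, 0.90]), and Mdm2, the ubiquitin ligase of p53, had 112, 106 and 81.8 CPM. Cdkn1a (p21), the cell cycle inhibitor that p53 induces, had 35.0, 38.8 and 40.2 CPM (-0.20 [-0.43, 0.04]). Trp53 was the low member, with 267 CPM in siLuc, 352 CPM in siLin28a and 409 CPM in untreated cells (-0.62).

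Ndc80, with 50.7 RPKM in siLuc and 20.3 RPKM in untreated cells, had the highest level per length of the transcripts whose whole interval was beyond 2-fold higher, leaving out Mir715. It encodes a subunit of the kinetochore complex that attaches chromosomes to microtubules, and had 834 counts (112 CPM) in siLuc, 574 counts (59.8 CPM) in siLin28a and 414 counts (44.7 CPM) in untreated cells (1.32 [1.15, 1.49]). Kinetochore and centromere genes were listed after this was seen, with Ndc80 among them. Of 31 measured, 25 had a ratio above 0, 3 passed 1.5-fold upward and 1 downward, with a median of 0.26. Ndc80 is 1 of the 3, and a list chosen this way cannot show a lean of the group. The partners of NDC80 in its complex were closer to the untreated level. Nuf2 had 95.1 CPM in siLuc, 74.4 CPM in siLin28a and 65.0 CPM in untreated cells, Spc25 had 54.2, 43.1 and 39 CPM, and Spc24 had 154, 167 and 133 CPM. Cenpe, a kinetochore motor, had 276, 224 and 172 CPM (0.68 [0.59, 0.78]). Cenpt, a DNA-binding kinetochore protein, lay the other way with 59.5, 83.9 and 90.1 CPM (-0.60 [-0.77, -0.43]).

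General cell cycle genes lay on both sides of the untreated level. Of 34 genes 18 had a ratio above 0, 0 passed 1.5-fold upward and 2 downward, and the median was 0.01. The 2 were Plk1, a mitotic kinase, with 147 CPM in siLuc, 131 CPM in siLin28a and 244 CPM in untreated cells (-0.73 [-0.84, -0.63]), and Ccnb1, cyclin B1, with 49.2, 57.7 and 75.2 CPM (-0.61), whose row is among those counted higher elsewhere. Top2a, a topoisomerase of dividing cells, had 1703, 1534 and 1579 CPM (0.11).

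Stem cell genes were near the untreated level with few exceptions. Of 38 measured pluripotency and LIF genes 16 had a ratio above 0, 0 passed 1.5-fold upward and 2 downward, with a median of -0.05. Pou5f1 (OCT4) had 1161 CPM in siLuc, 1420 CPM in siLin28a and 1177 CPM in untreated cells (-0.02 [-0.06, 0.02]). Nanog had 349, 448 and 390 CPM (-0.16), and Sox2 had 1103, 1104 and 842 CPM (0.39 [0.34, 0.43]). The lower members were Utf1, a chromatin protein of stem cells, with 371 CPM in siLuc, 637 CPM in siLin28a and 612 CPM in untreated cells (-0.72 [-0.79, -0.66]), and Sall4, a zinc finger factor, with 218, 382 and 349 CPM (-0.68 [-0.76, -0.59]). In both the siLuc library was low and the other two lay close together. Of 23 let-7 target genes 10 had a ratio above 0 and 1 was at least 1.5-fold lower, with a median of -0.06.

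Solute carriers move small molecules across membranes. Of 72 outside the mitochondrial, amino acid and zinc families, 16 had a ratio above 0, 0 passed 1.5-fold upward and 14 downward, with a median of -0.26. At least 1.5-fold lower were also 2 of 20 amino acid carriers, 1 of 28 mitochondrial carriers and 0 of 14 zinc carriers, against the background of 4.46%. Slc19a1, the reduced folate carrier, had 102 counts (13.6 CPM) in siLuc, 202 counts (21.0 CPM) in siLin28a and 331 counts (35.7 CPM) in untreated cells (-1.38 [-1.72, -1.06]). Slc29a3, a nucleoside transporter, had 17.7, 30.8 and 37.2 CPM in the same order (-1.07). Slc5a6, the multivitamin transporter, had 16.1, 16.4 and 29.4 CPM (-0.87). For all 3 the untreated library was the highest and siLuc the lowest. Of 103 transcripts named TMEM, a label for transmembrane proteins of varied or unknown role, 31 had a ratio above 0, 1 passed 1.5-fold upward and 13 downward, with a median of -0.10.

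Cldn6, a claudin of epithelial junctions known as a marker of pluripotent cells, had 27.0 CPM in siLuc, 20.7 CPM in siLin28a and 69.4 CPM in untreated cells (-1.36 [-1.60, -1.13]), low in both siRNA libraries. Of 9 measured claudins and tight junction genes, listed after Cldn6 was seen, 4 had a ratio above 0 and 3 were at least 1.5-fold lower, with a median of -0.33. The median was 0.022 over those with at least 1000 summed counts, and Tjp1 (ZO-1), the junction scaffold, had 257, 236 and 225 CPM. Alg3, a mannosyltransferase of N-glycan assembly, had 12.7 CPM in siLuc, 16.3 CPM in siLin28a and 32.5 CPM in untreated cells (-1.35 [-1.70, -1.02]). Lrfn4, a cell adhesion protein known from neurons, had 17.9, 28.4 and 41.1 CPM (-1.19). Kcnj12, a potassium channel, had 8.03, 21.2 and 19.5 CPM (-1.28 [-1.73, -0.85]), so it was low in siLuc alone of the 3 libraries.

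Anxa2, annexin A2, which binds membranes and the cell cortex in the presence of calcium, had 363 counts (48.6 CPM) in siLuc, 873 counts (90.9 CPM) in siLin28a and 168 counts (18.1 CPM) in untreated cells (1.42 [1.15, 1.69]). Camk2n1, an inhibitor of the kinase CaMKII, had the same order, with 23.4, 38.7 and 9.61 CPM (1.28 [0.91, 1.67]). In both the siLin28a library was the highest. Pex3, which anchors the import machinery of peroxisomal membrane proteins, had 30.8 CPM in siLuc, 24.8 CPM in siLin28a and 12.3 CPM in untreated cells (1.32 [0.99, 1.66]). The other peroxisome factors stayed near the untreated level: of 13 measured, 5 had a ratio above 0 and only Pex3 passed 1.5-fold, and the median was -0.06. Pspc1, a protein of nuclear paraspeckles, had 196, 157 and 92.3 CPM (1.08 [0.96, 1.21]).

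Metallothioneins, small proteins that bind zinc and copper, were lower with siLuc. Mt2 had 160 CPM in siLuc, 413 CPM in siLin28a and 318 CPM in untreated cells, which puts siLuc at 50.2% of the untreated level, and Mt1 had 198, 412 and 312 CPM (-0.66 [-0.75, -0.57]). The siRNA libraries thus lay on opposite sides of the untreated one. They were the 2 members at least 1.5-fold lower of 21 measured genes of the metal and oxidant responses, of which 9 had a ratio above 0 and the median was -0.16. Hmox1, heme oxygenase, and Nqo1, a quinone reductase, both targets of the oxidant factor NRF2, had log2 ratios of 0.24 and 0.37. Others on the list lay below the untreated level, such as Tkt, a transketolase, with 667 CPM in siLuc, 688 CPM in siLin28a and 863 CPM in untreated cells (-0.37 [-0.42, -0.32]), and Gclm, a subunit of the enzyme that starts glutathione synthesis, at -0.24. The heat shock list had a median of 0.00 over 16 genes. The 1 at least 1.5-fold higher was Hspe1, a mitochondrial chaperonin, which is among the 6 of the list counted higher elsewhere.

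Of the 63 non-coding transcripts 24 had a ratio above 0, 3 passed 1.5-fold upward and 10 downward, with a median of -0.15. Snhg7, a host of small nucleolar RNAs, had 8.16 CPM in siLuc, 17.3 CPM in siLin28a and 18.3 CPM in untreated cells (-1.16 [-1.62, -0.74]). Rmrp, the RNA of RNase MRP, had 12.6, 9.47 and 23.6 CPM (-0.91), and it is a short RNA that poly(A) selection is not made for. Malat1, a nuclear RNA and the one with the most counts, had 2552, 2532 and 2300 CPM (0.15 [0.12, 0.18]).

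Ratios were related to the genomic span of the gene. From the quintile of transcripts with the shortest span to the quintile with the longest, the median log2 ratio was -0.10, -0.04, -0.01, 0.04 and 0.05, and the share above 0 was 39.2%, 44.3%, 49.3%, 55.4% and 57.6%. In the shortest quintile 50 transcripts passed 1.5-fold upward and 164 downward, against 75 and 32 in the longest. Over the 8743 transcripts, which share both libraries, Spearman's rho was 0.17 with span, 0.03 with exon length and 0.02 with summed counts. Chromosome medians ranged, leaving out the 3 transcripts of chromosome Y, from -0.08 on chromosome 15 to 0.08 on chromosome 13, and chromosomes with longer genes had the higher ones. With ratios centred among transcripts of similar span, the numbers past 2-fold upward and downward were 29 and 26, and the medians were 0.44 for hypoxia, 0.38 for the stress response factors, 0.32 for kinetochore genes and -0.24 for the other solute carriers. What made the ratio follow span was not tested.

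**Figure D5:**
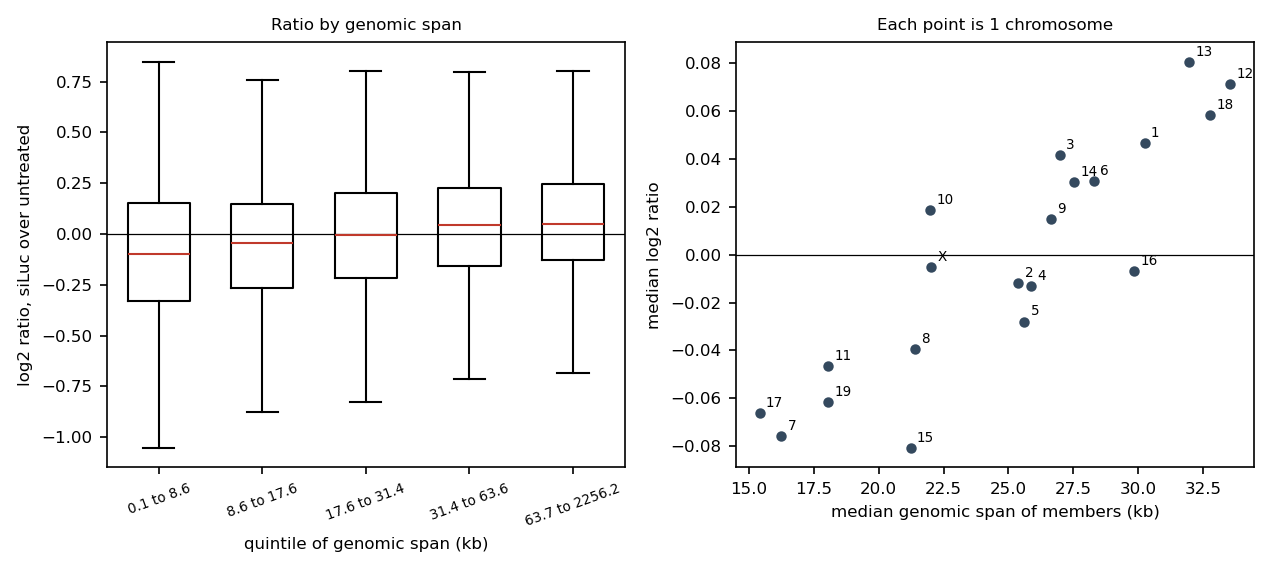
Left, log2 ratio of siLuc over untreated by quintile of genomic span (x axis, kb), as boxes of the quartiles with the median in red, and whiskers to the last transcript within 1.5 box lengths. Right, median log2 ratio against median span (kb) for each chromosome with at least 50 transcripts, from 7 and 17 with short genes to 12 and 13 with long ones.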

How the data were processed

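The authors deposited, per the file headers, a count and an RPKM value per RefSeq transcript for each of 3 poly(A) libraries; the submitters' processing notes name GSNAP, bedtools and the build mm9, and for the counting step nothing is given in the sources used here. RPKM as deposited by the authors equals the count divided by exon length and column total. CPM was computed from the deposited counts and the column total, and ratios with a pseudocount of 0.5 counts (Python 3.11.15, numpy 2.4.6, pandas 2.3.3, scipy 1.17.1). Intervals are exact binomial 95% intervals and cover counting error only. With 1 library per condition no test was made; called means at least 1.5-fold or 2-fold. Ratio and interval steps were tested on simulated counts. Normalization alternatives used edgeR 4.0.16 (TMM) and DESeq2 1.42.0 (size factors).

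The compared transcripts, the 42 gene lists and the alternatives were chosen with earlier results of these data known. Named were the 15 highest and 15 lowest ratios, 4 transcripts farthest from 0 and the most abundant in each list, the 5 highest levels, and examples named after their values were seen. A further 31 value columns of the files were not used. Seed matches in 3′ UTRs were not analysed here. Some named transcripts are not reported here and not drawn by name.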

Additional observations from a re-analysis of the deposited data

How the results depend on the processing

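The counts of transcripts depend on the minimum. The spread of log2 ratios (scaled median absolute deviation) was 0.42 in the quintile with the fewest counts and 0.25 in the quintile with the most. The median half-width of the counting interval was 0.35 and 0.09 in these quintiles. How much of the scatter came from counting was not tested. At least 2-fold higher were 107 transcripts with a minimum of 50 summed counts, 5 with 1000 and 1099 with no minimum beyond 1 count, and 2-fold lower were 153, 5 and 1981. At 1.5-fold the counts were 599, 75 and 1937 higher, and 764, 101 and 2896 lower. The spread was 0.50 with no minimum. Requiring the whole counting interval beyond 2-fold left 5 higher and 6 lower. Scaling by TMM or by size factors gave 23 higher and 30 lower, and a pseudocount of 5 counts gave 21 and 25. Leaving out transcripts counted over 2-fold higher elsewhere, an alternative added after the data were seen, gave 18 and 22. The claudin list turned from -0.33 to 0.022 with a minimum of 1000, the ER list went to 0.35 and the hypoxia list to 0.20, and the cytosolic ribosomal protein list had 0.13 without the rows counted higher elsewhere. None of these settings could turn the sign of a named transcript past 1.5-fold, so the signs are no check. Centring by span moved 24 named transcripts outside their counting interval and left 207 inside it. Scaling and the pseudocount left all 231 inside it. No paired analysis was possible because each condition had 1 library, and for the same reason no library could be left out. The planned seed-match comparison was not run.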
